A study of Mus musculus with 5 samples.

Results

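The genes described here encode the proteasome and the proteins that assemble or activate it. They were chosen by name, as all genes whose symbol starts with Psma, Psmb, Psmc, Psmd, Psme, Psmf or Psmg and that were read by a probe set with that symbol alone. The rule found 58 probe sets for 46 genes, of 8251 genes on the array. Where a gene had more than 1 probe set, the brightest over the 5 arrays was used. By function, 14 genes encode the constitutive 20S core, 3 the immunoproteasome subunits, 17 the 19S regulatory particle, 3 its assembly chaperones, 3 activators and 4 the chaperones of the 20S core. The other 2, Psmc3ip and Psme3ip1, share the spelling but encode no subunit.

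RNA came from thymocytes of male C57BL6 mice at 5 weeks of age, for which thymuses of 10 mice were used. The labels name no mutation, transgene or treatment. Blast-enriched thymocytes gave 4 lineage-negative, CD24-positive populations, separated by CD44 and CD25. CD44 was high in DN1, which lacked CD25, and in DN2, which carried it. CD44 was low in DN3, with CD25, and in the pre-double positive cells (preDP), without it. The double positive cells (DP), gated on CD4 with CD8, were taken from total thymocytes, so that stage and cell source cannot be told apart for DP. The sources used here do not say whether RNA of several mice was pooled.

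The proteasome is the main protease of the cytosol and nucleus, and it degrades proteins marked with ubiquitin. Its 20S core is a barrel of alpha and beta rings, and the 19S particle binds, unfolds and feeds in the substrate. In cells exposed to interferon, and in many cells of the immune system, the catalytic subunits Psmb6, Psmb7 and Psmb5 are replaced by Psmb9, Psmb10 and Psmb8. The immunoproteasome so formed makes many of the peptides shown on MHC class I molecules, on which thymocyte selection also depends.

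Each population had 1 array, so the ratios carry no replicate check and neither p-values nor standard errors are given. Lists of 5 signals run in the order DN1, DN2, DN3, preDP and DP. The unit is the deposited probe set signal, and a ratio is taken after raising values under a floor of 130.4 to that floor. For a step, written here as from DN1 to DN2, it is the later array over the earlier. A gene counts as measured in a comparison if it was above the floor on at least 1 of the 2 arrays. Of the 46 genes, 43 were above the floor on every array. Psmd10 was under it in DN3 only, and Psmc4 and Psmd2 stayed under it throughout. As a measure of error, the log2 ratio of a gene's second brightest probe set was subtracted from that of its brightest, over all genes that had both above the floor. Its SD was 0.54 at the step to DN2, 0.44 at that to DN3, 0.43 at that to preDP and 0.59 at that to DP. Variation between sorts and error shared by an array are not in this SD. Signals of different genes come from different probes and are not set against each other. In such bulk samples, fewer cells of a type and less RNA per cell cannot be told apart.

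The labelled cell types were checked against their markers. Il2ra, which encodes CD25, was above the floor only in DN2 and DN3. Cd8a and Cd8b1 were highest in DP, at 20020 and 28020. Both were also above the floor in DN1, at 755 and 342, and in preDP, at 2031 and 6242, and Cd8b1 in DN3, at 319. Cd4 read 5096 in DP and no more than 132 elsewhere, and Cd24a was above the floor on every array. Cd44 was under the floor on every array and checks nothing. Markers of other cell types were high in DN1. Of 16 neutrophil and myeloid markers 15 were above the floor in DN1, with a summed signal of 139735, against 6 in DN2 with 4069 and 1 in each of the other 3 arrays with 553 to 770.1. Natural killer markers were above the floor for 1 of 4 in DN1 and none later, and erythroid markers for 1 to 3 of 5. All 10 dendritic cell markers were above the floor in DN1, with a summed signal of 145391 against 5219 in DN2 and at most 2628 from DN3 on. For 10 B cell markers the sum was 61496 in DN1 and between 5012 and 10392.5 on the other arrays. Most of each sum was Ighm, at 52870 in DN1 and 8496 in DP. All 10 were above the floor in DN1, and 4 or 5 on each other array. Of the thymic epithelial and stromal markers, at most 2 of 11 were above the floor on any array, and the epithelial regulator Foxn1 did not exceed 11.4. The part of these cells in any ratio against DN1 was not tested. Ratios of 3' to 5' signal lay between 2.79 and 3.31 for actin and between 1.39 and 2.04 for Gapdh.

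The constitutive 20S core had its highest signal in preDP. Of its 14 genes, 12 were highest in preDP and Psmb1 and Psmb6 in DN3. Across all 5438 measured genes 21.5% were highest in preDP. The same number, 12 of 14, stood higher at each step from DN1 to preDP and then lower in DP, a shape seen in 10.9% of all measured genes. With plain probe sets alone the shape held for 8, since Psma3 and Psmb7 then have no probe set and Psmb4 and Psmb5 only a dim one.

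Each step up to preDP was small. The core's median log2 ratio was 0.21 from DN1 to DN2, 0.28 from DN2 to DN3 and 0.07 from DN3 to preDP, where the medians of all measured genes were 0.13, 0.00 and 0.01. With the brightest probe sets all 14 genes were higher in DN3 than in DN2, a direction shared by 50.3% of measured genes. At the last step all 14 were lower in DP than in preDP, a direction shared by 49.6%, and the median was -0.63 against 0.01 for all genes. By size, 9 of the 14 were at least 1.5-fold lower in DP, against 22.5% of all genes, and 1, Psmb5, was at least 2-fold lower, against 11.7%.

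The alpha ring closes the barrel and gates the entry of substrate. Psma2 had the widest span of the ring, 2.12-fold, with signals of 4197, 5569.8, 7105, 8914 and 5333 from DN1 to DP. Psma6 read 5322, 8854, 10761, 10999.7 and 9824 in the same order. It stood out by its level in DP, which was 0.16 below preDP on the log2 scale and 0.88 above DN1. Psma3 had the narrowest span of the ring, 1.53-fold, with 7068, 8423, 9679, 9999 and 6549.5. The 7 alpha genes were all highest in preDP. As deposited, Psma3 had a log2 ratio of -0.11 for DP over DN1, a difference whose sign turned under quantile normalisation and with arrays scaled to an equal median. Psma1, Psma4, Psma5 and Psma7 had spans between 1.55-fold and 1.97-fold.

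In the constitutive beta ring, Psmb5, Psmb6 and Psmb7 carry the active sites. Psmb5, the chymotrypsin-like subunit, gave signals of 1582, 2030.3, 2638, 3343 and 1624 from DN1 to DP. It was thus 2.11-fold higher in preDP than in DN1 and, as deposited, nearly back at the DN1 value in DP. Its log2 ratio of DP over DN1 was 0.04, and between -0.09 and 0.43 over the alternatives. The probe set used carries the suffix of shared sequences. The other Psmb5 probe set was under the floor on every array but preDP, where it read 147. Psmb6, the caspase-like subunit, read 2521, 2855, 4214, 4126 and 2591, high in DN3 and preDP and low on the other 3 arrays. Psmb7, the trypsin-like subunit, read 1705, 2001, 2573, 2986 and 1986. Its highest array was preDP and its lowest DN1. Psmb4, a structural beta subunit, had the narrowest span of the ring, 1.30-fold, with 6248, 6579, 7342, 7455 and 5753. Psmb1 had a second probe set above the floor, which read 1963, 1888, 1745, 1656 and 1338 from DN1 to DP, and so was lower at every step, whereas the brighter one was highest in DN3 at 3631. For this gene the direction from DN2 to DN3 depends on the probe set, and both were lower in DP than in preDP. The structural subunits Psmb2 and Psmb3 were highest in preDP, with spans of 1.57-fold and 1.55-fold.

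**Figure D1:**
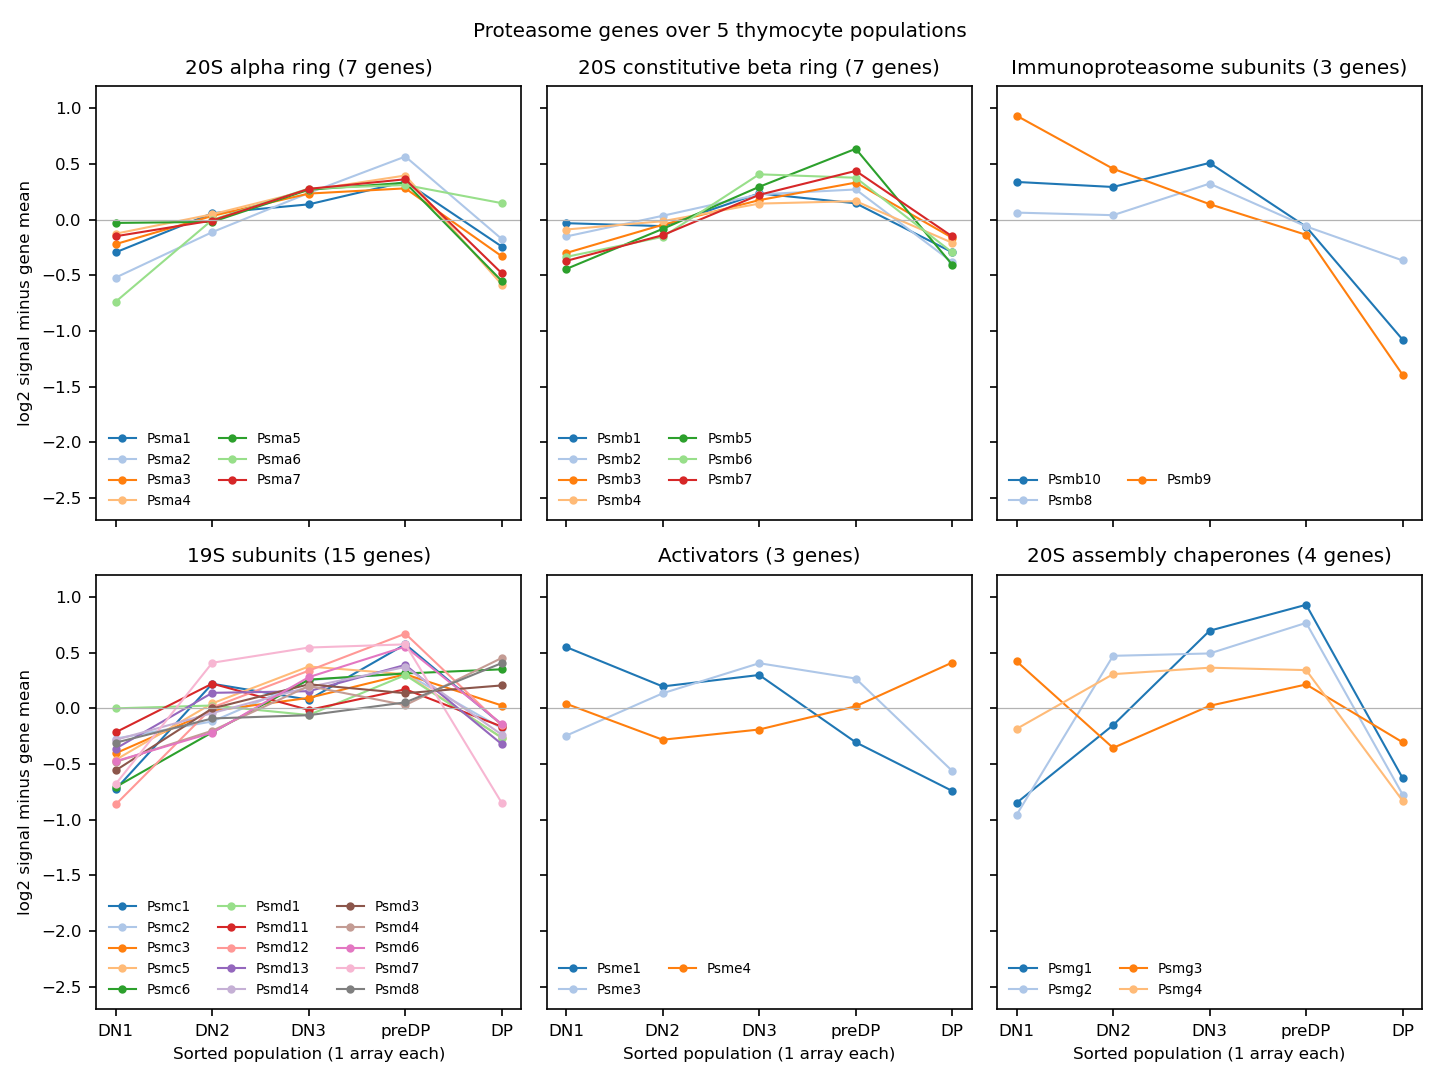
Log2 signal of each measured gene minus its own mean over the 5 arrays, by role; each line is 1 gene and each point 1 array, from DN1 to DP. Of the 14 core genes 12 are highest in preDP and all 14 are lower in DP than in preDP. Lowest in DP are all 3 immunoproteasome genes and 7 of the core genes, against 29.1% of all measured genes. Psme4 is highest in DP.

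The immunoproteasome subunits had another course. Psmb9, which takes the place of Psmb6, gave signals of 4873, 3502, 2809.8, 2321 and 971 from DN1 to DP. It was lower at every step, a shape seen in 2.85% of all measured genes. With the brightest probe sets no other of the 44 measured genes here had it, but the second probe set of Psmb1 did. In DP Psmb9 was 5.02-fold lower than in DN1, the widest span among the 46 genes, and 3.61-fold lower than in DN2. Psmb10, which takes the place of Psmb7, read 4596, 4454, 5174, 3477 and 1722. Its first 3 arrays lay close together, and DP was 3.01-fold below DN3. Psmb8, which takes the place of Psmb5, read 11171, 10993, 13379.7, 10250.4 and 8293, a span of 1.61-fold with its highest value in DN3 and its lowest in DP. All 3 were lowest in DP, as were 7 of the 14 core genes and 29.1% of all measured genes.

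Between DN3 and preDP the 3 immunoproteasome genes had log2 ratios of -0.28 for Psmb9, -0.38 for Psmb8 and -0.57 for Psmb10, and each was below the lowest of the 14 core genes, Psmb1 at -0.09. The median of the 3 was -0.38 and that of the core 0.07. As deposited, no immunoproteasome gene was 1.5-fold apart at this step, where 8.48% of all measured genes were at least 1.5-fold lower. Psmb10 was close to that size, at 1.49-fold. Over the alternatives its log2 ratio reached -0.589, just past 1.5-fold, so its count rests on the processing. From preDP to DP the ratios were -1.26 for Psmb9, -1.01 for Psmb10 and -0.31 for Psmb8. Psmb9 and Psmb10 were at least 2-fold lower, against 11.7% of all measured genes, and Psmb9 alone was below every core gene. Psmb8 was less reduced than 13 of the 14 core genes.

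Set against its own counterpart, each immunoproteasome gene had the lower ratio at all 3 steps up to preDP with the brightest probe sets. A ratio of this kind compares changes within an array and shows unequal change only. The log2 ratio of the immunoproteasome gene minus that of its counterpart was -0.38, -0.09 and -0.73 for Psmb8 and Psmb5 at the steps to DN2, DN3 and preDP. For Psmb9 and Psmb6 it was -0.66, -0.88 and -0.25, and for Psmb10 and Psmb7 -0.28, -0.15 and -0.79. The probe set SDs at these steps were 0.54, 0.44 and 0.43. Larger in size than the SD were only Psmb9 and Psmb6 at the steps to DN2 and DN3. At the step to preDP the pairs of Psmb8 and of Psmb10 were. The other differences lay within it. The sign of the -0.09 for Psmb8 and Psmb5 is not settled. That difference turned positive with the mean over probe sets and with plain probe sets alone, reaching 0.28. Psmb7 has no plain probe set, so this check is missing for Psmb10 and Psmb7. Over the whole course from DN1 to DP, the difference was -2.37 for Psmb9 and Psmb6, -1.64 for Psmb10 and Psmb7 and -0.47 for Psmb8 and Psmb5. Since myeloid, dendritic and B cell markers were high in DN1, DP was also set against DN2. The differences were then -1.71, -1.36 and -0.08 in the same order. For Psmb8 and Psmb5 the size is not settled. With plain probe sets alone it was -0.41, where the plain Psmb5 probe set lay under the floor in both DN2 and DP. The part of the other cell types in the change from DN1 was not tested. The comparisons share arrays and are not independent. From preDP to DP the pair of Psmb8 and Psmb5 turned round, at 0.74, since Psmb5 was 2.06-fold lower in DP and Psmb8 1.24-fold. With plain probe sets alone this last difference was -0.14, because the plain Psmb5 probe set lay under the floor in DP.

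**Figure D2:**
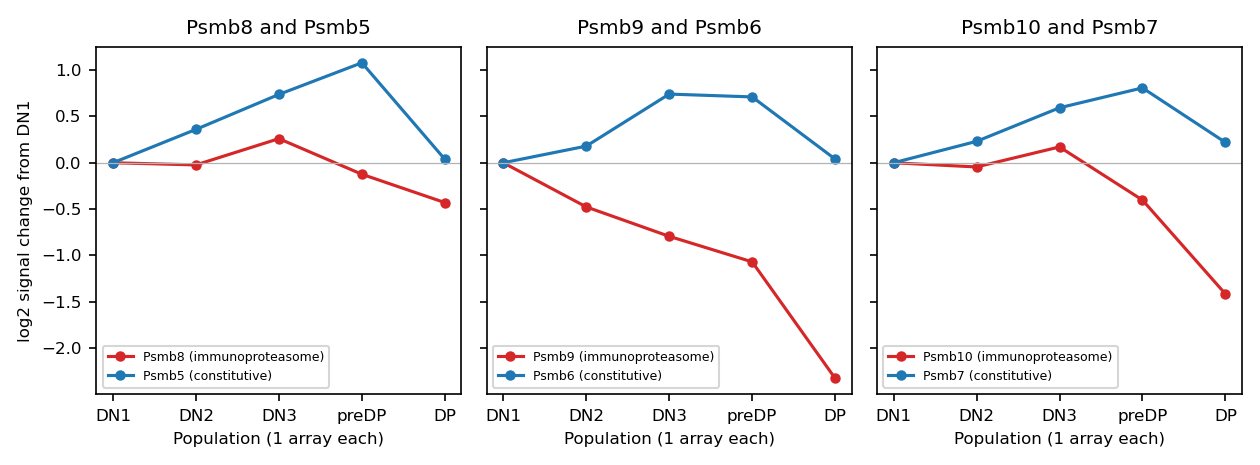
Change in log2 signal from DN1 for each immunoproteasome subunit (red) and the constitutive subunit it replaces (blue), 1 array per population. The blue lines stand above the red ones on every array after DN1, most widely for Psmb9 and Psmb6 in DP.

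From DN1 to DN2 the ratios were -0.48 for Psmb9, -0.05 for Psmb10 and -0.02 for Psmb8. The sign of the last 2 is not settled, since with arrays scaled to an equal median both turned positive, and Psmb8 also under quantile normalisation. From DN2 to DN3 Psmb8 was at 0.28 and Psmb10 at 0.22, within the range of the core genes, whereas Psmb9 was at -0.32, below all 14.

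Psmb9 and Psmb8 lie in the class II region of the MHC on chromosome 17, where RefSeq places them next to Tap1, a chain of the peptide transporter of the class I pathway. The starts of Psmb9 and Tap1 point away from each other, 226 bases apart, and their promoter windows share 275 of 300 bases. Their signals went together up to preDP and apart after it. Tap1 gave signals of 5954, 3844, 2598, 1854 and 2708 from DN1 to DP, so that from preDP to DP its log2 ratio was 0.55 while that of Psmb9 was -1.26. The difference between the 2 ratios is larger than the probe set SD of 0.59, but that SD leaves out variation between sorts. This is a description and no test, and DP also came from another cell source. The windows of Psmb9 and Psmb8, and for contrast those of Psmb5 and Psmb6, are printed here from RefSeq (GRCm38.p6), from 250 bases before to 50 bases after the start. Psmb9 is at chr17:34187281-34187580 on the minus strand, Psmb8 at chr17:34197945-34198244 on the plus strand, Psmb5 at chr14:54617946-54618245 on the minus strand and Psmb6 at chr11:70525107-70525406 on the plus strand. Capitals mark matches on either strand to the motifs named in the next paragraph.
Psmb9: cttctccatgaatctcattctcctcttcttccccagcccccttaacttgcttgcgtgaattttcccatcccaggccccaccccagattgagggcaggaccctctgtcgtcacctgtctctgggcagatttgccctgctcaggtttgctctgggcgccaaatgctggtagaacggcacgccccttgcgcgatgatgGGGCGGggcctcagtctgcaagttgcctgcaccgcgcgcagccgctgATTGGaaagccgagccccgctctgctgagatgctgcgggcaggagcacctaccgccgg
Psmb8: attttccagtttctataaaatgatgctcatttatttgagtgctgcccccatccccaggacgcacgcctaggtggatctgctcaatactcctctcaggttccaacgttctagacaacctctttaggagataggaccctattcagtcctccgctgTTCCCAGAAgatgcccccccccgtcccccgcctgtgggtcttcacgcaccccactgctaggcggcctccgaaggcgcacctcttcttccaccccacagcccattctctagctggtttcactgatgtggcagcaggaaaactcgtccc
Psmb5: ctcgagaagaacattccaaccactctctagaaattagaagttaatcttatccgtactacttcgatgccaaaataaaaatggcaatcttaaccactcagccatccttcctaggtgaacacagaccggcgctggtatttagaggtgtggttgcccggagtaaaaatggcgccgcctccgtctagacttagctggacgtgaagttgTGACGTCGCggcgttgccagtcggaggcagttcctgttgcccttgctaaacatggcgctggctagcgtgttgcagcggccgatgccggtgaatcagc
Psmb6: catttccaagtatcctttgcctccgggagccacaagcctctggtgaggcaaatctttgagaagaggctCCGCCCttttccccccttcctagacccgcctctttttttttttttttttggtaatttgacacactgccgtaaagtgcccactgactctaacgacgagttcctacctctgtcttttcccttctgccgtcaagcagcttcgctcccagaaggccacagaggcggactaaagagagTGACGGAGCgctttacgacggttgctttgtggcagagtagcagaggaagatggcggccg

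A set of 5 short motifs was searched on both strands in the windows of 39 of the 46 genes, 42 windows in all since 3 genes have 2. They were the core of the interferon-stimulated response element (GAAA, 2 bases of any kind, GAAA), TTCNNNGAA (the STAT site), TGACNNNGC (core of the antioxidant response element), GGGCGG (the GC box) and CCAAT. No match overlapped another in the 4 windows shown. Psmb9 held GGGCGG and CCAAT, both read in its shared stretch with Tap1, Psmb8 held TTCNNNGAA, Psmb5 held TGACNNNGC, and Psmb6 held TGACNNNGC and GGGCGG. The window of Psmb10 held none of the 5. TGACNNNGC was in 6 of 42 windows, 14.3%, against 12.4% of all 32851 windows. GGGCGG was in 54.8% against 35.7% and CCAAT in 35.7% against 37.4%. TTCNNNGAA was in 7.14% against 8.3%. The interferon-stimulated response element core was in 5 windows, those of Psmb3, Psmd4, Psmd9, Psme1 and Psmg4, which is 11.9% against 3.44%. A match is a description of these letters only, and its absence says no more than that they are not in the window.

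The activators cap the core in place of the 19S particle. Psme1, a subunit of the interferon-inducible activator that works with immunoproteasomes, gave signals of 10405, 8143, 8744, 5751 and 4249 from DN1 to DP. It was 2.45-fold lower in DP than in DN1, with log2 ratios of -0.60 from DN3 to preDP and -0.44 from preDP to DP. With the mean over its probe sets, of which the other lay under the floor throughout, DP over DN1 was -0.65 on the log2 scale in place of -1.29. From DN3 to preDP it was the only one of the 44 measured genes at least 1.5-fold lower, against 8.48% of all genes. That ratio was -0.56 with arrays scaled to an equal median and -0.30 with the mean over probe sets, both short of 1.5-fold, and under quantile normalisation 2 of the 44 were 1.5-fold lower. Psme3, its nuclear relative, read 1744, 2269.7, 2737, 2488 and 1399.6, highest in DN3 and lowest in DP. Psme4, a nuclear activator known from DNA repair and spermatogenesis, ran the other way, with 592, 473, 504, 582 and 765, lowest in DN2 and highest in DP. Psme4 in DP was 0.69 above DN2 on the log2 scale, or 1.62-fold.

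The 19S subunits were mostly higher at each step up to preDP and split in DP. All 15 measured genes were higher in DN2 than in DN1, a direction shared by 59% of all measured genes, with a median of 0.44 against 0.13. From DN2 to DN3 and from DN3 to preDP 12 of 15 were higher, against 50.3% and 51.5% of all genes. From preDP to DP 11 were lower, against 49.6%, and 4 higher, with a median of -0.56, and 6 of the 15 were at least 1.5-fold lower against 22.5% of all genes.

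Among the ATPases, which unfold the substrate, Psmc1 had the widest span, with 943, 1818, 1646, 2323 and 1409 from DN1 to DP. Its preDP value was 2.46 times that of DN1. Psmc6 read 2541, 3570.4, 4956, 5151 and 5286. It was the only measured ATPase gene that was not lower in DP than in preDP, and it stood there 2.08-fold above DN1. Psmc2 had the narrowest span of these genes, with 2216, 2465, 3188, 3326 and 2361. All 3 probe sets of Psmc3 were highest in preDP, at 2943, 1558 and 1196, and lower in DP, at 2424, 1240.0 and 708. The probe sets of this gene thus gave 1 direction, but none of the 3 is a plain one. Psmc5 was highest in DN3, with a span of 1.79-fold, and Psmc4, at 7.93 to 55.3, gave no usable level.

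Among the non-ATPase subunits, Psmd7, a lid subunit that pairs with the deubiquitinase Psmd14, had 1957, 4161, 4574, 4665 and 1738 from DN1 to DP. Its 3 middle arrays were high and the outer ones low, with no overlap, and its step up to DN2 was 2.13-fold and its step down to DP 2.68-fold. Psmd14 itself read 1399, 1653, 1944, 2202 and 1444, a span of 1.57-fold. Psmd12, another lid subunit, read 708, 1295, 1628, 2049 and 1158, a span of 2.89-fold with DN1 lowest and preDP highest. Psmd6, also of the lid, read 1634, 1952, 2757, 3335 and 2059, with the same order of its lowest and highest array. Psmd4, a ubiquitin receptor, was higher in DP than on any other array, with 3339, 4056, 5355, 4755 and 6379. Psmd8 was also highest in DP, at 3078, and Psmd3 was 3339 there against 3181 in preDP. Psmd11, another lid subunit, had the narrowest span, 1.35-fold, with 2439, 3302, 2802, 3187 and 2526. A second probe set of it read 945.5 in DN2 and 977 in DN3, so the direction at that step is not settled. Psmd1, the scaffold of the base, and the lid subunit Psmd13 were highest in preDP, with spans of 1.48-fold and 1.68-fold, and Psmd2, at 7.75 to 76.6, gave no usable level.

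Among the chaperones of the 19S base, Psmd5 differed from the subunits it helps to assemble. It had 2198, 1773, 1136, 1272 and 808 from DN1 to DP, a span of 2.72-fold, and it was the only measured gene of the 44 at least 1.5-fold lower in DN3 than in DN2, where 10.4% of all genes were. Psmd9 spanned 1.49-fold, with 509, 602, 714, 759 and 659. Psmd10 stayed near the floor, at 151, 136, 115, 239.9 and 205, and its step of at least 1.84-fold from DN3 to preDP rests on values close to it.

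The chaperones that build the alpha ring included the widest spans after Psmb9. Psmg1 and Psmg2, which act as a pair, had like courses. Psmg1 read 606, 983, 1770.3, 2081 and 707. Psmg2 read 515, 1386, 1406, 1701 and 584. Both were highest in preDP and lowest in DN1, with spans of 3.43-fold and 3.30-fold. From preDP to DP their log2 ratios were -1.56 and -1.54, the lowest of all 44 genes. Psmg4 read 1146, 1611, 1677, 1652 and 732, nearly level from DN2 to preDP and then 2.26-fold lower. Its partner Psmg3 has no settled direction. The probe set used read 615, 359, 466, 532 and 371, and the other read 119, 199.5, 171, 124 and 223. From DN1 to DN2 the 2 probe sets gave log2 ratios of -0.78 and 0.61.

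Over all 44 measured genes, DP against preDP was the step with the largest difference. Of these genes 38 were lower in DP, against 49.6% of all measured genes, and 6 were higher, against 50.4%. At least 1.5-fold lower were 23, where 22.5% of all genes were, and none was 1.5-fold higher, against 23.2%. None was 2-fold higher, against 11.3% of all genes. At least 2-fold lower were 8, where 11.7% of all genes were, so the difference in counts is at the smaller size. With arrays scaled to an equal median 5 were 2-fold lower. The 8 were Psmg1, Psmg2, Psmd7, Psmb9, Psmg4, Psmb5, Psmb10 and Psmc3ip. The last encodes a cofactor of meiotic recombination and no subunit, and with 138, 326, 288, 342 and 170.2 it was near the floor in DN1 and DP. With the higher floor its log2 ratio was -0.02. The median log2 ratio was -0.60 against 0.01 for all measured genes. The 6 higher genes were Psmd4, Psme4, Psmd8, Psme3ip1, Psmd3 and Psmc6.

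**Figure D3:**
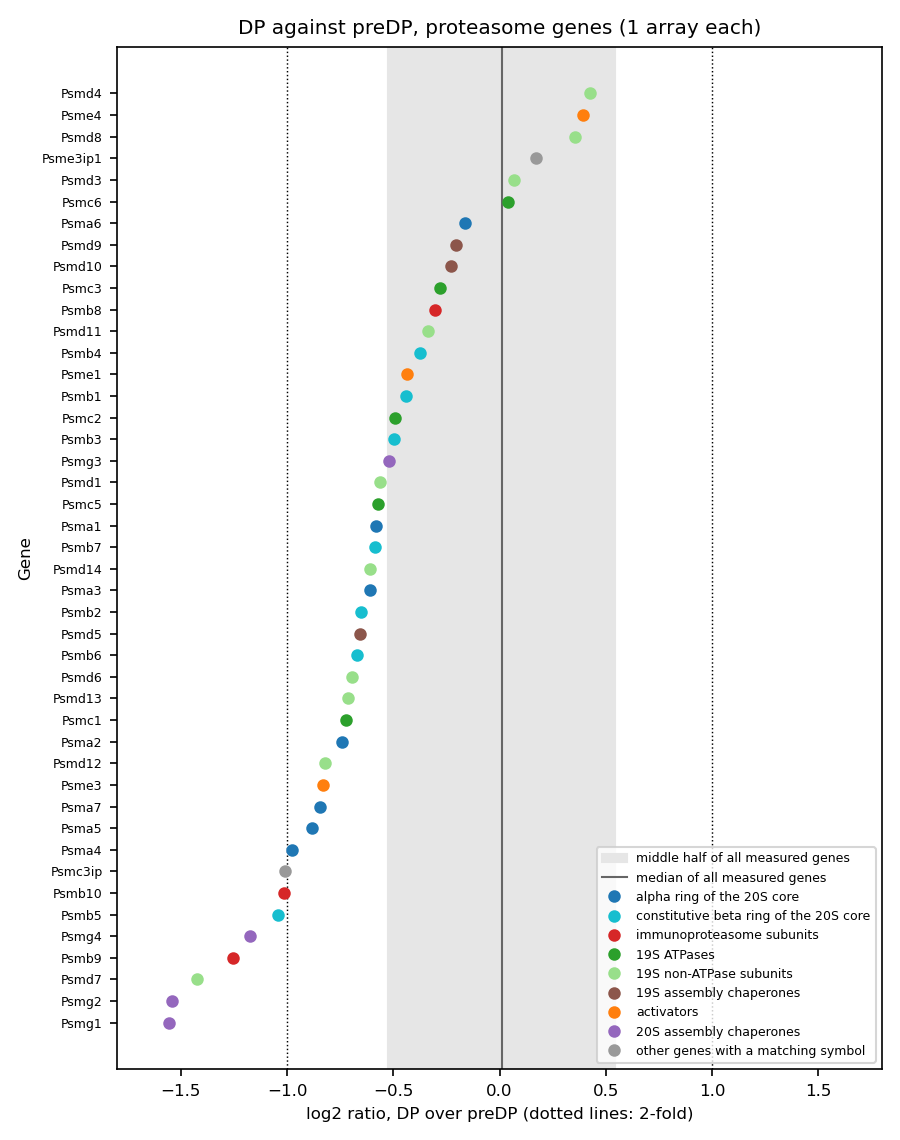
Log2 ratio of DP over preDP for the 44 measured genes, 1 array on each side, coloured by role; the grey band holds the middle 50 percent of all measured genes and the grey line is their median. Of the points, 38 lie below 0, and the 6 above 0 all lie inside the band.

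The earlier steps were smaller. From DN1 to DN2, 35 of 44 genes were higher and 9 lower, against 59% and 41% of all genes. At least 1.5-fold higher were 8, against 18.5%, and 1, Psmg3, was so much lower, against 14.7%. At least 2-fold higher were 3, Psmg2, Psmc3ip and Psmd7, against 4.76%, and none was 2-fold lower, against 8.58%. With arrays scaled to an equal median 19 of them were 1.5-fold higher and 5 were 2-fold higher, so these counts rest on the scaling. Psme3ip1, which binds Psme3, read 1156, 1939, 1732, 1575 and 1775 from DN1 to DP, lowest in DN1.

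From DN2 to DN3, 36 of 44 were higher and 8 lower, against 50.3% and 49.7% of all genes. At 1.5-fold, Psmg1 alone was higher, against 7.24%, and none was 2-fold higher or lower, against 2.02% and 3.95%. From DN3 to preDP, 32 of 44 were higher and 12 lower, against 51.5% and 48.5%. At 1.5-fold, Psmd10 alone was higher, against 7.23%, and none was 2-fold higher or lower, against 1.16% and 2.43%. At both steps most of these genes thus stood higher by less than 1.5-fold.

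Set against DN1, DP held 27 genes that were higher and 17 that were lower, against 53.1% and 46.9% of all genes. At least 1.5-fold higher were 7, against 24.8%, and 6 were so much lower, against 21.9%. At least 2-fold higher was Psmc6 alone, against 11.9%, and 2-fold lower were Psmb9, Psmd5, Psmb10 and Psme1, against 13.8%. With arrays scaled to an equal median 7 were 2-fold and 17 were 1.5-fold higher. Set against DN2, where the summed myeloid, dendritic and B cell markers were far lower than in DN1, 11 genes were higher in DP and 33 lower, against 49% and 51%. Then 3 were at least 1.5-fold higher, Psme4, Psmd4 and Psmd10, against 20.6%, and 10 were so much lower, against 23.3%. None was 2-fold higher, against 9.9%, and 6 were 2-fold lower, against 12.7%: Psmb9, Psmb10, Psmd7, Psmg2, Psmg4 and Psmd5. These comparisons share the DP array.

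Over the 5 arrays 16 of the 44 measured genes spanned at least 2-fold, whereas 46.2% of all measured genes did. The median span was 1.79-fold, against 1.93-fold for all.

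Proliferation genes were lower in DP as well. Of 13 measured S phase genes all were lower in DP than in preDP, against 49.6% of all measured genes. Their median was -1.48, and 11 were at least 2-fold lower. Among G2 and mitotic genes 12 of 13 were at least 2-fold lower, with a median of -1.51. Of all measured genes 11.7% were. Rrm1, a subunit of ribonucleotide reductase, read 5793 in preDP and 1394 in DP. Like most core genes, all 13 S phase genes were higher from DN1 to DN2, with a median of 0.92, and from DN3 to preDP, with a median of 0.66. At these steps 12 of 12 and 12 of 13 G2 and mitotic genes were higher, against 59% and 51.5% of all measured genes. From DN2 to DN3 the S phase median was -0.25 and 11 of 13 genes were lower, as were 11 of 13 G2 and mitotic genes. Of all measured genes 49.7% were lower at that step, while with the brightest probe sets all 14 core genes were higher. DP cells came from total thymocytes and the others from blast-enriched ones. The part of proliferation and of cell source in the DP values was not tested.

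Among other genes of the ubiquitin and proteasome pathway 12 of 15 measured were higher in DN2 than in DN1, with a median of 0.43, against 59% and 0.13 for all genes. From preDP to DP 7 of 15 were lower and 8 higher, against 49.6% and 50.4% of all genes, with a median of 0.10. At least 2-fold lower were 3, against 11.7% of all genes. Uchl5, a deubiquitinase bound to the 19S particle, read 518, 977, 1142, 1541 and 492 from DN1 to DP. Usp14, the other deubiquitinase bound there, was 576 in preDP and 233 in DP, and the shuttle factor Rad23b 1006 and 433. Ufd1, a cofactor of the segregase Vcp, was 475 and 665.

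Of 6 measured genes of class I peptide loading, 5 were lower in DN2 than in DN1, against 41% of all genes, with a median of -0.57. The other, Tap2, was higher, with a log2 ratio of 1.02. From DN2 to DN3 and from DN3 to preDP 4 of 6 were lower, against 49.7% and 48.5%, with medians of -0.27 and -0.45. From preDP to DP 3 were lower and 3 higher, against 49.6% and 50.4%, with a median of 0.07. Tapbp, which joins the transporter to class I molecules, read 5531, 3151, 2444, 1376 and 2016 from DN1 to DP. B2m, the light chain of class I, read 14199.8, 9966, 12523, 7042 and 4542. Of 16 interferon pathway genes 7 were at least 2-fold lower in DN2 than in DN1, against 8.58% of all genes, among them Irf8, at 9429 in DN1 and 316 in DN2, and Irf7, at 2324 and 242. Igtp, an interferon-induced GTPase, was 336 in preDP and 1743 in DP, the opposite direction to Psmb9 and Psmb10. Irf8 and Irf1 went the same way as those 2 at that step, with log2 ratios of -1.12 and -0.47. Of 13 interferon pathway genes measured there 8 were higher and 5 lower, against 50.4% and 49.6% of all genes, with a median of 0.09. At least 2-fold higher were 3 and 2-fold lower 1, against 11.3% and 11.7%. A link of the proteasome genes to interferon was not tested.

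**Figure D4:**
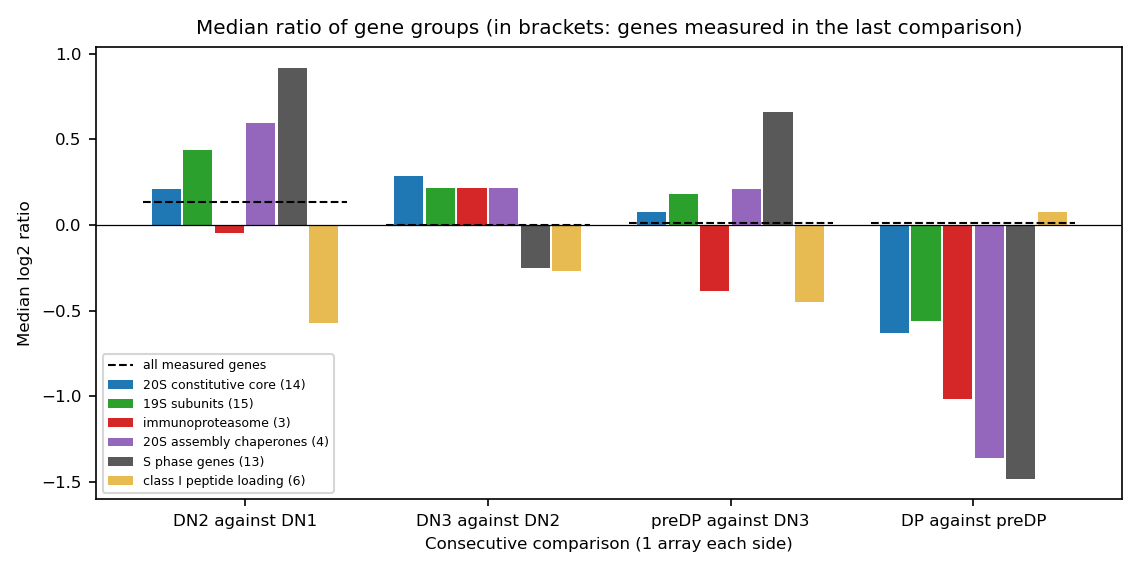
Median log2 ratio of each gene group in the 4 consecutive comparisons, 1 array on each side, with dashed lines for the median of all measured genes. Immunoproteasome genes lie below the constitutive core at the steps to DN2 (-0.05 and 0.21) and to preDP (-0.38 and 0.07), and all 4 proteasome groups are below 0 at the step to DP, where class I peptide loading genes stand at 0.07.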

How the data were processed

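Expression was measured with 1 Affymetrix array for each of 5 sorted thymocyte populations. The authors deposited a signal intensity for each probe set, on a linear scale. The submitters' processing notes name Affymetrix Expression Console 1.0 together with MAS5, without settings. Each array's mean, with 2% of values trimmed from both ends, lay between 500.3 and 500.4, which hides any difference in mRNA content between cells.

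Of 12488 probe sets, 10833 gene probe sets had 1 symbol. RefSeq gene identifiers altered no symbol, so the alternative without updating gave the same values. Left out were 2 probe sets listed with several symbols of which one fits the rule, and Psma8, Psmb11, Psme2 and Psmf1 were not analysed here. The floor was the 50th percentile of gene probe set values. Calls were by size, at least 2-fold or 1.5-fold. The counting step was checked on simulated arrays at the 2-fold size only, with larger changes planted in bright genes. The 1.5-fold calls were not checked in this way. The alternatives changed the scaling (quantile normalisation, equal medians), the floor (percentile 35 or 65, or adding 50 instead), the probe sets (their mean, or plain ones alone) and the symbols (as given). Leaving out Psmc3ip and Psme3ip1 was added after seeing the data. The genes, lists and rules were chosen with earlier results of these data known. The named genes are those of the catalytic, activator and chaperone groups, all with a span of at least 2-fold, and the widest and narrowest of each role; other members named were chosen after their values were seen. Python 3.11.15, numpy 2.4.6, pandas 2.3.3 and matplotlib 3.10.9 were used.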

Additional observations from a re-analysis of the deposited data

How the results depend on the processing

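No paired analysis was possible because each population has 1 array, and no array could be left out. With arrays scaled to an equal median, the median in DN2 over DN1 went from 0.21 to 0.45 for the 20S core and from 0.25 to 0.50 for all genes here. In DP over DN1 it went from -0.04 to 0.36 and from 0.05 to 0.44. In DP over preDP the core's median lay between -0.65 and -0.56 over the alternatives and that of the immunoproteasome between -1.04 and -0.95. The median of the immunoproteasome in DN2 over DN1 and that of the core in DP over DN1, both near 0, changed sign with arrays scaled to an equal median. That scaling moved the median of all genes above the floor on both arrays from 0.18 to 0.41 in DN2 over DN1 and from 0.17 to 0.53 in DP over DN1. It turned the share higher among genes 2-fold apart from 35.7% to 60.1%, from 46.3% to 69.9% and, in DP over DN2, from 43.8% to 55.2%. Under it, genes here at least 2-fold higher were 5 in DN2 over DN1 (3 as reported) and 7 in DP over DN1 (1). At least 1.5-fold higher were 19 in DN2 over DN1 (8), 2 in DN3 over DN2 (1), 17 in DP over DN1 (7) and 5 in DP over DN2 (3). At least 2-fold lower were 5 in DP over preDP (8). At least 1.5-fold lower were 0 in DN2 over DN1 (1) and 0 in preDP over DN3 (1). In preDP over DN3, 2 genes were 1.5-fold lower under quantile normalisation and 0 with the mean over probe sets, 1 was 2-fold higher with the lower floor and 0 were 1.5-fold higher with the higher floor. In DN2 over DN1, 0 were 1.5-fold lower with the mean over probe sets or plain probe sets alone. With plain probe sets 1 was 1.5-fold higher in DP over preDP. The difference between Psmb8 and Psmb5 in DP over preDP was -0.14 with plain probe sets. Psmg3 in DN2 over DN1 was 0.61 with plain probe sets, and in DP over DN1 it was 0.773 with these and 0.023 with the mean. Genes highest in preDP numbered between 20 and 30 over the alternatives. The number of arrays limits the precision.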
